A study of Mus musculus with 8 samples.

Results

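Malat1, Neat1, Meg3 and Kcnq1ot1, long noncoding RNAs that stay in the nucleus, and Gas5, Snhg1, Snhg5, Snhg6, Snhg8 and Snhg12, long noncoding RNAs whose introns hold small nucleolar RNAs (snoRNAs), are described here in mouse microglia. These 10 genes were taken by symbol from the 35583 genes of the deposited tables, 4 as nuclear-retained RNAs and 6 as snoRNA host RNAs. They were proposed from earlier results of the same libraries, including the difference between the plasma-positive and plasma-negative microglia, that is, they were chosen by read counts compared between the same 8 libraries, so their values in that comparison are given as a description, with no test of their own. RNA was sequenced from sorted microglia of the hypothalamus; the mice were wild-type and young, and had been injected 20 hours earlier with plasma protein that carried a dye. Cells with the dye make up the plasma-positive group (4 libraries) and cells without it the plasma-negative group (4 libraries). Every mouse had received the plasma protein, so there is no group without the injection, and the labels give neither sex nor an exact age. The labels do not say whether the libraries of a group came from separate animals, so the spread between them may be technical.

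Malat1 is a very abundant RNA of nuclear speckles, the bodies where splicing factors gather. Its neighbour Neat1 is the scaffold of paraspeckles, nuclear bodies built on that RNA by proteins such as Sfpq and Nono. Kcnq1ot1 and Meg3 are made from imprinted clusters, each from the copy of 1 parent, and Kcnq1ot1 silences nearby genes on the chromosome that makes it. Gas5 and the Snhg RNAs are spliced, their introns are cut down to snoRNAs that guide chemical modification of ribosomal RNA, and the exons are exported and largely destroyed by nonsense-mediated decay as the ribosome reads them. Many such host genes begin transcription at a run of pyrimidines, as ribosomal protein genes do. The short form of Neat1 ends by ordinary polyadenylation. In Malat1 and the long form of Neat1 the end of the mature RNA is made otherwise: RNase P cuts after a stretch of A that the gene encodes, and U-rich stretches upstream fold onto it as a triple helix.

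The 3′ ends of Malat1 and Neat1 are shown first because they carry what these neighbours share in sequence. They are 100 bases each, read from the GENCODE M21 transcripts (build GRCm38) on the minus strand of chromosome 19. The Malat1 stretch is chr19:5795982-5796081, bases 6592 to 6691 of a transcript of 6983 bases, and the Neat1 stretch is chr19:5824708-5824807, the last 100 of 20771 bases. Capitals mark the stretches of at least 11 bases found in both, with the whole run of A before the final GCAAAA.
Malat1: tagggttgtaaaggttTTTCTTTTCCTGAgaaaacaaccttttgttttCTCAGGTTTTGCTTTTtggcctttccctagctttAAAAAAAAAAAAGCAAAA
Neat1: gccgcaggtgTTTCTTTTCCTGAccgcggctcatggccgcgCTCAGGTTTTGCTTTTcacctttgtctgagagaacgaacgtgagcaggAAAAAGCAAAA
The shared stretches were TTTCTTTTCCTGA (13 bases), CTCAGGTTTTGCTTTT (16 bases) and AAAAAGCAAAA (11 bases). They stand in the same order in both RNAs, and the run of A was 12 bases long in Malat1 and 5 in Neat1. On the transcript strand, TTTCTTTTCCTGA was found in transcripts of 17 of 55341 genes and AAAAAGCAAAA in 304. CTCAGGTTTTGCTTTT was found in 2 genes, Malat1 and Neat1, which were also the 2 that held all 3 stretches; since the stretches were picked as those the pair shares, this only says how rare they are elsewhere. Runs of at least 8 A inside a transcript, counted in the longest transcript of each gene, were 30 in Kcnq1ot1 (the longest of 41 bases), 7 in Meg3, 1 in Malat1, 1 in Snhg12 and 0 in the other 6 genes. Those transcripts are 93092, 14548, 6983 and 1538 bases long, so per 1000 bases the order is another: 0.650 in Snhg12, 0.481 in Meg3, 0.322 in Kcnq1ot1 and 0.143 in Malat1, and the rates of Snhg12 and Malat1 rest on 1 run each. Of all 55341 genes, 18.0% had such a run.

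The start sites of 5 genes are shown because a pyrimidine run at the start is what many snoRNA hosts have in common. Each is a window of 60 bases, 30 before and 30 from the start that RefSeq gives (GRCm38.p6), written along the gene's own strand. Capitals mark a C followed by at least 4 further C or T that begins within 5 bases of that start.
Gas5, chr1:161035136-161035195, plus strand: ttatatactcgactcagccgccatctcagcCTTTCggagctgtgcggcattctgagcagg
Snhg8, chr3:123508307-123508366, minus strand: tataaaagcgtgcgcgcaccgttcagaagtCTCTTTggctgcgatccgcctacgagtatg
Snhg12, chr4:132308648-132308707, plus strand: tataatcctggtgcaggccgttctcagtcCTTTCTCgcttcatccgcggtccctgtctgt
Kcnq1ot1, chr7:143296518-143296577, minus strand: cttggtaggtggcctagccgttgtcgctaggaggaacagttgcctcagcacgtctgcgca
Malat1, chr19:5802643-5802702, minus strand: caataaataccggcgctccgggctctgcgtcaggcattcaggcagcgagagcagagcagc
RefSeq gives a further start for Gas5 (window chr1:161034571-161034630) with no such run; a gene was counted as having the run if any of its starts did. Of the 5 host genes with a start in that table, 3 had such a run (Gas5, Snhg8 and Snhg12). The hosts Snhg1 and Snhg5, whose windows are not shown, had none. Of the 3 nuclear-retained genes with a start there, Meg3 alone had one, and its windows are not shown either. The 5 windows above are thus not a clean split of the 2 groups. Such a run was present at 30 of 64 ribosomal protein genes (46.9%) and at 5718 of 27025 genes in all (21.2%). The run was defined after these sequences had been seen, only the gene's own strand was searched, and a match is a description of letters and not of a regulated site.

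Levels are given in CPM, which are reads per library size after TMM scaling. Libraries held 2963094 to 21422738 counts, the smallest being plasma-negative replicate 4. All 10 genes had enough counts to be tested in the fit over all genes (13277 genes). Microglial marker RNA was abundant everywhere: the 10 markers, among them Cx3cr1, P2ry12 and Tmem119, summed to 64764 to 76480 CPM in plasma-negative and 72654 to 78024 CPM in plasma-positive libraries, and 2 of the 10 (Csf1r and Olfml3) were called higher. Of the markers of other cells, Cd163, Lyve1 and F13a1 of border macrophages and Cd3e of T lymphocytes had 0 counts throughout. Summed markers of oligodendrocytes were at 163 to 230 CPM in the plasma-negative and 222 to 537 CPM in the plasma-positive group, those of astrocytes at 214 to 328 and 209 to 306 CPM, those of endothelial cells at 18.5 to 37.0 and 19.0 to 59.5 CPM, and those of border macrophages at 0.881 to 3.61 and 1.76 to 16.5 CPM, all with overlapping libraries. The 6 blood leukocyte markers summed to 474 CPM in plasma-positive replicate 3 and to at most 13.8 CPM in any other library. Neuron markers summed to 326 CPM in plasma-positive replicate 2 and 78.5 CPM in plasma-positive replicate 1, against 4.04 to 34.4 CPM in the other 6 libraries. Counts on genes made up 68.9% to 74.6% of the library total behind the deposited RPKM values in plasma-negative libraries and 81.4% to 84.2% in plasma-positive libraries; the part this difference has in the results was not tested.

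Set per kilobase of merged exon, Malat1 stood far above the other 9 genes in both groups. It was at 962 ± 89.2 CPM per kilobase in the plasma-negative and 466 ± 30.5 in the plasma-positive group (SD, n = 4 each). How well RNAs with different 3′ ends were captured was not measured, so these levels compare reads and not molecules. Neat1 was divided by the length of its long form. Among all listed genes Malat1 ranked 23 by mean CPM. In plasma-negative libraries the order below it was Gas5 (16.9 ± 1.67 CPM per kilobase), Snhg8 (13.3 ± 7.07), Snhg6 (8.93 ± 4.27), Snhg1 (3.14 ± 3.45), Snhg12 (2.17 ± 0.912), Snhg5 (1.54 ± 1.54), Kcnq1ot1 (0.959 ± 0.149), Neat1 (0.596 ± 0.381) and Meg3 (0.341 ± 0.210). Each of these overlapped the next in the order, library against library, so only the place of Malat1 was separate from its neighbour. In plasma-positive libraries Snhg8 (22.3 ± 10.6) came before Gas5 (19.3 ± 2.48) with overlapping libraries, Gas5 was separate from Snhg6 (9.71 ± 5.39), and all later neighbours overlapped down to Kcnq1ot1 (0.472 ± 0.0852), which was last. The host RNAs had higher levels per kilobase of annotated exon than Neat1, Meg3 and Kcnq1ot1 by their means in both groups. For Malat1, Neat1, Kcnq1ot1, Snhg1, Snhg8 and Snhg12 the merged exons of the annotation cover the whole gene span, and for Gas5 they cover 91.3% of it. Of the annotated transcripts, 20 of 25 for Gas5 and 14 of 18 for Snhg1 are retained-intron forms, so these counts do not separate spliced from unspliced host RNA.

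**Figure D1:**
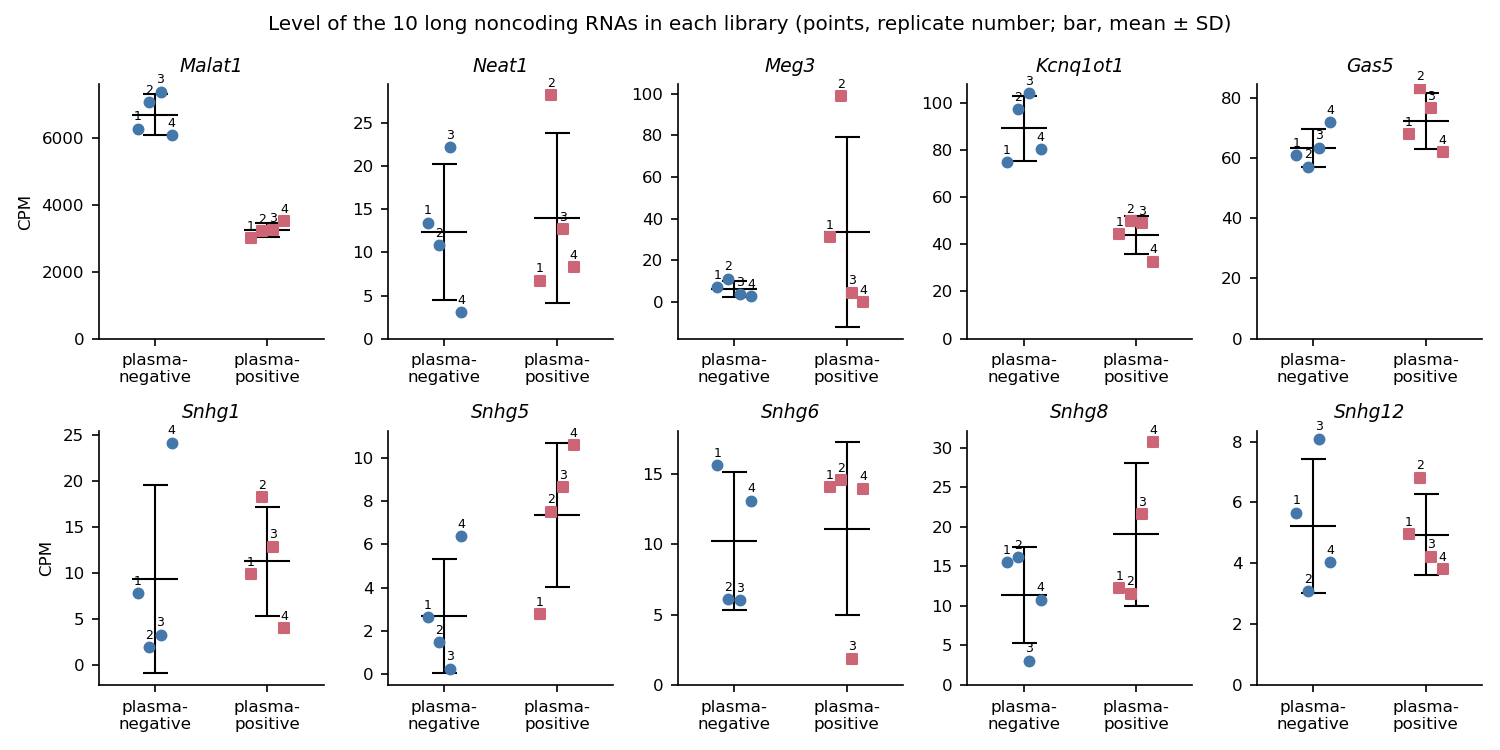
Level of each of the 10 long noncoding RNAs in CPM (vertical axis, its range differs by panel) in the 4 plasma-negative (blue circles) and 4 plasma-positive (red squares) libraries, numbered by replicate, with the mean and SD as bars. Malat1 and Kcnq1ot1 are the panels in which every plasma-positive library lies below every plasma-negative one; in the other 8 panels the groups overlap.

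Of the 10 RNAs, 2 were past the threshold of the fit over all genes (edgeR, adjusted p under 0.05), Malat1 and Kcnq1ot1, both lower in plasma-positive libraries; 1.41% of all tested genes were past it in either direction and 0.565% in the lower direction. The same 2 were the members whose libraries did not overlap between groups, as was so for 10.3% of all tested genes. Of the 6 host RNAs 0 were past the threshold with edgeR, DESeq2 or limma-voom, 0 had an unadjusted p under 0.05, and their estimates ran from -0.08 to 1.52 on the log2 scale. Of all tested genes, 7.13% were higher and 6.67% lower at an unadjusted p under 0.05, DESeq2 called 2.99% higher and 3.43% lower, and limma-voom 1.12% and 0.844%. Log2 changes are plasma-positive minus plasma-negative throughout. In these bulk samples fewer cells that make an RNA and less of it per cell cannot be told apart.

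Malat1 (ENSMUSG00000092341, chr19:5795690-5802672, minus strand, 1 exon of 6983 bases) was at 6291, 7085, 7399 and 6099 CPM in plasma-negative replicates 1 to 4 and at 3010, 3210, 3259 and 3528 CPM in plasma-positive replicates 1 to 4. The highest plasma-positive library was thus well below the lowest plasma-negative one. The means were 6719 ± 623 and 3252 ± 213 CPM (SD, n = 4 each), which is 2.07 times as much in plasma-negative microglia, and the log2 change was -1.05 (SE 0.07). As a share of all gene counts Malat1 took 0.698% ± 0.0750 and 0.311% ± 0.0201. The spread between libraries, a coefficient of variation of 9.27% and 6.56%, was many times the counting error of 0.316% and 0.463%, a lower bound, since these libraries carry no molecular identifiers and copies of 1 molecule are counted as separate reads. Malat1 was past the threshold, with a log2 change between -1.16 and -0.92, in all 23 other ways of scaling, filtering, testing or leaving out libraries that were tried. Without plasma-positive replicates 1 and 2, the libraries with most neuron marker RNA, the log2 change was -0.98.

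Gm37376 (ENSMUSG00000102349, chr19:5801941-5802393, plus strand) lies on the other strand within the Malat1 exon, covering 6.49% of it. Its counts were 42.1% to 47.8% of those of Malat1 in every library and its log2 change was -1.03. The files do not say how reads shared by overlapping genes or strands were counted, so both rows may hold the same reads.

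Kcnq1ot1 (ENSMUSG00000101609, chr7:143203458-143296549, minus strand) is annotated as 1 unspliced transcript of 93092 bases, antisense to the potassium channel gene Kcnq1. It was at 74.9, 97.4, 104 and 80.4 CPM in plasma-negative replicates 1 to 4 and at 44.2, 49.9, 49.0 and 32.6 CPM in plasma-positive replicates 1 to 4. All 4 plasma-positive libraries were below all 4 plasma-negative ones. The means were 89.3 ± 13.9 and 43.9 ± 7.93 CPM (SD, n = 4 each), and the log2 change was -1.02 (SE 0.20). The place of Kcnq1ot1 past the threshold was kept in 9 of 23 alternatives and rested on nearly every library: it was lost without plasma-negative replicate 1 (log2 change -1.10), 2 (-0.98) or 3 (-0.94) and without plasma-positive replicate 1 (-1.02), 2 (-1.09), 3 (-1.08) or 4 (-0.90), and held without plasma-negative replicate 4 (-1.07). It was also lost with the replicate block (-1.03), with RPKM plus 1 (-0.30) or plus 0.1 (-0.75) and without both plasma-positive replicates 1 and 2 (-1.12). After a correction of each library for exon length its log2 change was -0.03. Kcnq1ot1 is the only gene over 50000 bases among those at 32 CPM or more, so the trend at its length includes the gene itself. With the trend fitted without the 10 RNAs the log2 change was -0.26, not past the threshold. In that fit Kcnq1ot1 was longer than any gene used and took the correction at the longest length among them. Its own length was thus not modelled there.

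Neat1 (ENSMUSG00000092274, chr19:5824708-5845478, minus strand, 20771 bases) was a low RNA in these cells. It was at 13.5, 10.8, 22.2 and 3.03 CPM in plasma-negative replicates 1 to 4 and at 6.71, 28.3, 12.7 and 8.27 CPM in plasma-positive replicates 1 to 4. The groups overlapped widely, and plasma-negative replicate 4 was the lowest and plasma-positive replicate 2 the highest of all. The log2 change was 0.16 (SE 0.62), and it was -0.44 without plasma-positive replicate 2 and -0.14 without plasma-negative replicate 4.

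Meg3 (ENSMUSG00000021268, chr12:109541001-109571726, plus strand, 18089 exon bases) is best known from neurons and endocrine cells. It was at 7.04, 11.1, 3.78 and 2.69 CPM in plasma-negative replicates 1 to 4 and at 30.9, 98.8, 4.47 and 0 CPM in plasma-positive replicates 1 to 4. Plasma-positive replicates 1 and 2 were the highest of all libraries, while plasma-positive replicate 4 had no count, which at its depth of 9421708 allows up to 3. The summed neuron markers, which include Snap25, Syt1 and Tubb3, were 34.4, 10.2, 17.3 and 4.04 CPM in plasma-negative replicates 1 to 4 and 78.5, 326, 7.77 and 5.47 CPM in plasma-positive replicates 1 to 4. The 2 libraries highest in Meg3 were thus the 2 highest in neuron marker RNA, whose part in the Meg3 values was not tested. The log2 change of Meg3 was 2.41 (SE 1.19); it was 0.92 without plasma-positive replicate 2 and -1.45 without plasma-positive replicates 1 and 2. Of 6 further genes of its imprinted cluster 1 had enough counts to be tested, Rian. It was at 0 to 5.03 CPM over the 8 libraries (log2 change 1.78, SE 1.83, adjusted p = 0.743 by edgeR) and Mirg had at most 5 counts in a library.

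**Figure D2:**
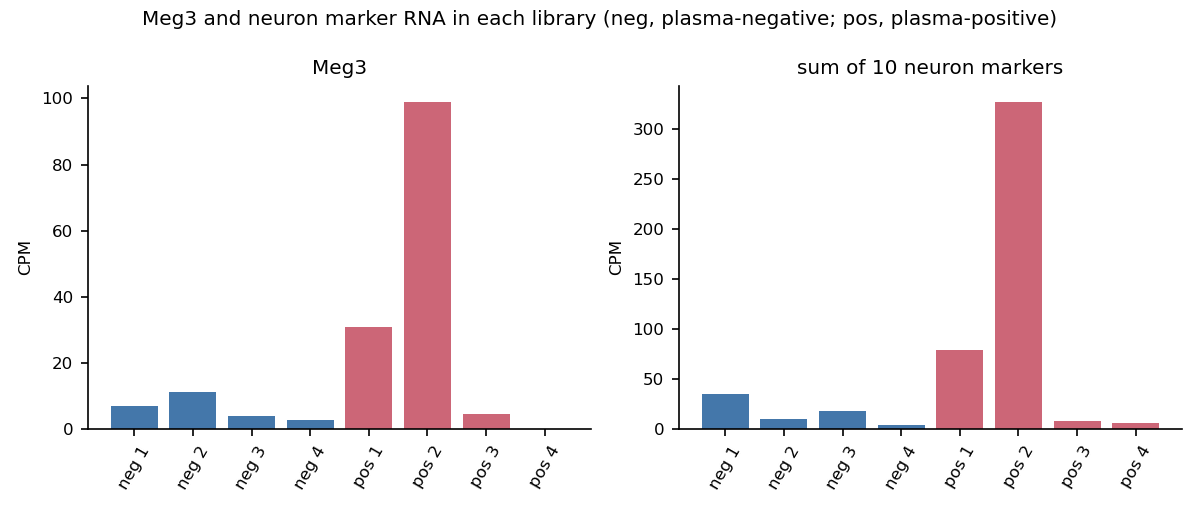
Meg3 (left) and the sum of 10 neuron marker genes (right) in CPM (vertical axes starting at 0) in each library; blue bars are plasma-negative and red bars plasma-positive replicates 1 to 4. Plasma-positive replicates 1 and 2 are the tallest bars in both plots, at 30.9 and 98.8 CPM for Meg3 and 78.5 and 326 CPM for the markers.

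Gas5 (ENSMUSG00000053332, chr1:161034422-161038539, plus strand), host of several snoRNAs of the box C/D class, was the steadiest host RNA. It was at 61.1, 57.2, 63.5 and 72.0 CPM in plasma-negative replicates 1 to 4 and at 68.0, 83.2, 76.6 and 62.1 CPM in plasma-positive replicates 1 to 4. The groups overlapped, with means of 63.4 ± 6.27 and 72.5 ± 9.31 CPM (SD, n = 4 each) and a log2 change of 0.20 (SE 0.17). Over the 23 alternatives its log2 change stayed between 0.05 and 0.31. Gas5 and Kcnq1ot1 had like CPM, at ranks 2592 and 2639 among all listed genes, and the SE of Gas5 was near that of Kcnq1ot1.

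The other 5 hosts were lower and far more variable. Snhg8 (ENSMUSG00000104960, chr3:123507552-123508404, minus strand) was at 15.5, 16.2, 3.09 and 10.8 CPM in plasma-negative and 12.2, 11.5, 21.6 and 30.7 CPM in plasma-positive replicates 1 to 4. Its log2 change was 0.74 (SE 0.54), with plasma-positive replicates 3 and 4 above every plasma-negative library. It was 0.42 without plasma-negative replicate 3, 0.41 without plasma-positive replicate 4 and 0.37 with the exon length correction. Snhg5 (ENSMUSG00000097195, chr9:88521050-88522929, minus strand) was at 2.61, 1.45, 0.233 and 6.39 CPM in plasma-negative and 2.75, 7.52, 8.68 and 10.6 CPM in plasma-positive replicates 1 to 4. Plasma-positive replicate 1 alone fell within the plasma-negative range, and the log2 change was 1.52 (SE 0.92), or 2.36 without plasma-negative replicate 4.

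Snhg1 (ENSMUSG00000108414, chr19:8723475-8726443, plus strand), which lies on the same chromosome as Malat1, was at 7.84, 1.95, 3.32 and 24.2 CPM in plasma-negative and 9.90, 18.3, 12.9 and 4.02 CPM in plasma-positive replicates 1 to 4. The highest value of all was in plasma-negative replicate 4, and the log2 change was 0.32 (SE 0.77); without that library it was 1.37. Snhg6 (ENSMUSG00000098234, chr1:9941959-9944118, minus strand) was at 15.6, 6.11, 6.05 and 13.1 CPM in plasma-negative and 14.1, 14.6, 1.88 and 14.0 CPM in plasma-positive replicates 1 to 4. Its log2 change was 0.12 (SE 0.64), and 11.1% of its exon length is shared with Mcmdc2 on the other strand. Snhg12 (ENSMUSG00000086290, chr4:132308623-132311024, plus strand) was at 5.67, 3.08, 8.09 and 4.04 CPM in plasma-negative and 4.95, 6.81, 4.21 and 3.80 CPM in plasma-positive replicates 1 to 4. Its log2 change was -0.08 (SE 0.64), the nearest to 0 of the 10 RNAs.

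The spread of these 5 hosts between libraries was larger than their counting error. Their coefficients of variation over the plasma-negative libraries were 42.0% for Snhg12, 47.9% for Snhg6, 53.0% for Snhg8, 99.7% for Snhg5 and 110% for Snhg1, against counting errors of 7.60% to 19.5%. In plasma-positive libraries they ran from 27.0% (Snhg12) to 55.5% (Snhg6). Their log2 changes had SEs of 0.54 to 0.92, so a difference of the size seen for Malat1 would lie within 2 SEs of 0 in these 5 genes.

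**Figure D3:**
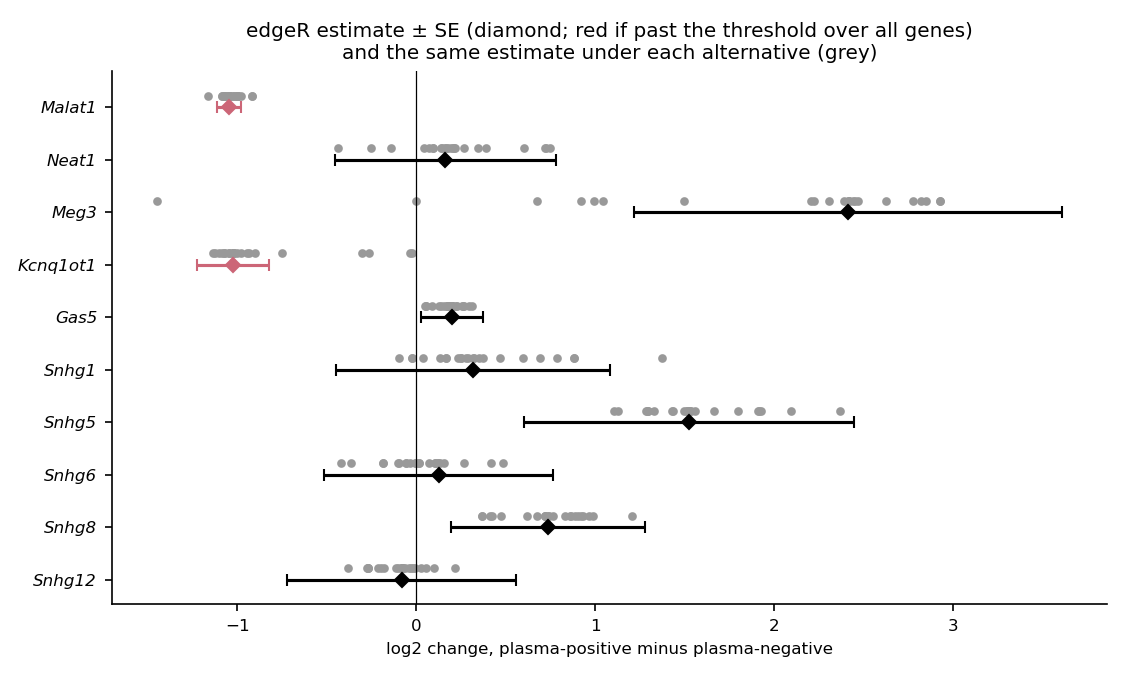
Log2 change (plasma-positive minus plasma-negative, horizontal axis) of each RNA from edgeR, shown as a diamond with its SE (red if past the threshold over all genes), and the same change under 23 other scalings, filters, tests and sets of libraries (grey points). The Malat1 points lie between -1.16 and -0.92, those of Kcnq1ot1 between -1.14 and -0.03, those of Gas5 between 0.05 and 0.31, and those of Meg3 between -1.45 and 2.93.

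Ratios within a library do not depend on how libraries are scaled. They were not corrected for exon length, which is 93092 bases for Kcnq1ot1, 6983 for Malat1 and 3760 for Gas5. Malat1 reads per Gas5 read were 103, 124, 117 and 84.7 in plasma-negative replicates 1 to 4 and 44.3, 38.6, 42.6 and 56.8 in plasma-positive replicates 1 to 4. Every plasma-positive ratio was below every plasma-negative one, and the ratio of the group means was -1.23 on the log2 scale. Kcnq1ot1 reads per Gas5 read also did not overlap, with 1.42 ± 0.294 and 0.604 ± 0.0567 (SD, n = 4 each). Malat1 reads per Kcnq1ot1 read overlapped, with 75.9 ± 5.77 and 76.8 ± 20.97 (SD, n = 4 each). The 6 host RNAs together were at 102 ± 21.8 and 126 ± 12.3 CPM (SD, n = 4 each), also overlapping, and Malat1 reads per host read were 68.8 ± 19.6 and 25.9 ± 2.38 without overlap. Summed reads of Neat1, Meg3 and Kcnq1ot1 per host read overlapped, at 1.12 ± 0.418 and 0.707 ± 0.395 (SD, n = 4 each).

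Exon length moved with the comparison across the transcriptome, so Malat1 is set against genes of like length; no gene at a mean of at least 32 CPM is longer than Kcnq1ot1 and none shares its length class, so no such comparison was made for it. Among the 5176 genes at a mean of at least 32 CPM, the median log2 change was 0.37 for 85 genes under 1000 bases, 0.15 for 2230 genes of 2000 to 5000 bases, -0.05 for 1768 genes of 5000 to 10000 bases, -0.35 for 586 genes of 10000 to 20000 bases and -0.52 for 55 genes of 20000 to 50000 bases. Malat1, of 6983 bases, had a log2 change lower than all but 17 of the 1768 genes in its class. Gas5, of 3760 bases, was close to the median of its own class with 0.20. With the per-library correction for exon length, Malat1 was at -1.001 when the trend was fitted without the 10 RNAs and was past the threshold, as were 70 genes in all (0.527%). The part of exon length in the Kcnq1ot1 difference was not tested beyond these corrections.

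**Figure D4:**
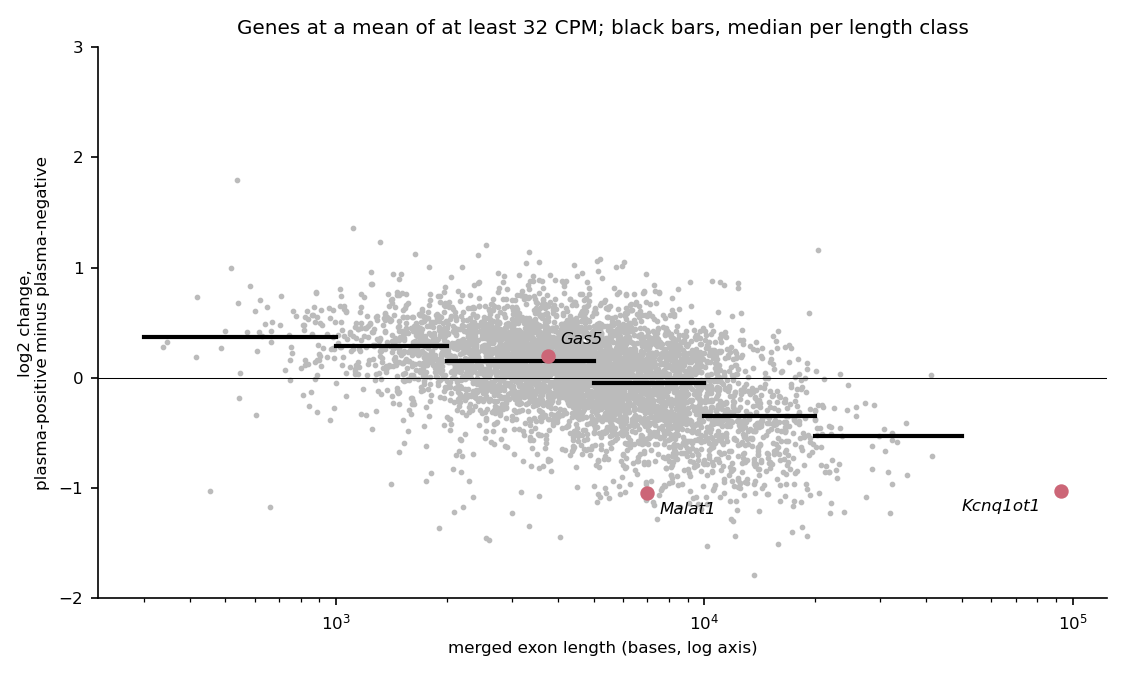
Log2 change (plasma-positive minus plasma-negative, vertical axis) against merged exon length in bases (horizontal log axis) for 5176 genes at a mean of at least 32 CPM (grey; 1 gene lies outside the plotted range), with Malat1, Kcnq1ot1 and Gas5 in red and the median of each length class as black bars. The medians go from 0.37 for the shortest to -0.52 for the class of 20000 to 50000 bases, Malat1 lies far below the median of its class, and Kcnq1ot1 is alone at its length.

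Among all genes that GENCODE annotates as long noncoding types, 1524 were tested, of which edgeR called 0 higher and 11 lower, with a median log2 change of -0.28. That is 0.722% called lower, near the 0.565% of all tested genes. At an unadjusted p under 0.05 there were 16 higher and 105 lower (1.05% and 6.89%, against 7.13% and 6.67% of all tested genes). DESeq2 called 4 higher and 53 lower of them (0.262% and 3.48%, against 2.99% and 3.43%), and limma-voom 0 higher and 12 lower (0% and 0.787%, against 1.12% and 0.844%). The shares called lower were thus near those of all genes by each of these rules. The median ran from -0.54 with the exon length correction to -0.07 with RPKM plus 1 over the alternatives. For 11104 protein-coding genes the counts were 112 higher and 53 lower with a median of 0.05. The noncoding genes whose exons overlap no other gene, 496 in number, gave 0 higher and 5 lower with a median of -0.66 (3 higher and 52 lower at an unadjusted p under 0.05, 1 and 26 with DESeq2, 0 and 6 with limma-voom; the lower counts are 1.01% with edgeR, 10.5%, 5.24% and 1.21% of the 496). That median was -0.27 with RPKM plus 1 and -0.98 with the exon length correction and replicate block. The long noncoding types were shorter than protein-coding genes, with a median exon length of 1669 against 4483 bases. Malat1 took 24.0% ± 1.51 of all counts on long noncoding types without the dye and 14.6% ± 0.627 with it, and the groups did not overlap. The remaining long noncoding types together took 2.21% ± 0.0955 and 1.82% ± 0.0351 of all counts (SD, n = 4 each), so the Malat1 share was lower although the rest was lower too.

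Of 19 further well-known long noncoding RNAs, 12 were tested, 1 was called lower and none higher (0.565% of all tested genes were called lower). The median log2 change was -0.48 against 0.01 for all tested genes. Over the alternatives the list median ran from -0.81 with the exon length correction and replicate block to -0.32 with RPKM plus 1. The called RNA was Dleu2, a host of the miR-15a and miR-16-1 microRNAs, at 208, 253, 191 and 205 CPM in plasma-negative and 138, 103, 94.9 and 119 CPM in plasma-positive replicates 1 to 4. Its groups did not overlap, and its log2 change was -0.92 (SE 0.15; edgeR, adjusted p = 0.0137). It was called in 17 of 23 alternatives, with log2 changes from -1.03 to -0.64 over all 23. The call was lost without plasma-positive replicate 2 (-0.87, adjusted p = 0.0539), without both plasma-positive replicates 1 and 2 (-1.001, adjusted p = 0.11), with RPKM plus 1 (-0.73, adjusted p = 0.0511), with the exon length correction fitted with or without the 10 RNAs (-0.64, adjusted p = 0.102 and 0.103) and with that correction and the replicate block (-0.65, adjusted p = 0.204). Airn and Mir155hg had 0 counts in all libraries, and Norad is not listed under that symbol.

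Other genes that carry snoRNAs in their introns were counted by type. Of 15 further noncoding hosts, 11 were tested and 0 were called by edgeR, with a median log2 change of -0.47; 0 had an unadjusted p under 0.05, and DESeq2 and limma-voom also called 0. That median was -0.0085 without plasma-negative replicate 1, -0.022 with RPKM plus 1, -0.058 after thinning, 0.086 with RPKM plus 0.1 and -0.84 without both plasma-positive replicates 1 and 2. Snhg3 (-0.47, SE 0.78, adjusted p = 0.868) and Zfas1 (0.20, SE 0.49, adjusted p = 0.915) are examples, with overlapping groups in both. Snhg7 and Snhg16 are not listed under those symbols.

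Of 14 protein-coding hosts, 13 were tested, 4 were called higher and none lower, with a median log2 change of 0.30; of all tested genes 0.844% were called higher. The median was 0.16 without plasma-positive replicate 2, 0.18 with the exon length correction and 0.19 with library totals only. Rpl13a, a protein of the large ribosomal subunit, was at 426, 399, 439 and 419 CPM in plasma-negative and 598, 621, 539 and 658 CPM in plasma-positive replicates 1 to 4 (log2 change 0.52, SE 0.09, edgeR adjusted p = 0.0143). Rps3, a protein of the small subunit, had a log2 change of 0.46 (SE 0.09, adjusted p = 0.0245), and the elongation factor Eef2 one of 0.37 (SE 0.08, adjusted p = 0.0393). Their groups did not overlap. The last called host, named after its values were seen, was the chaperone Hspa8 (0.71, SE 0.15, adjusted p = 0.0402). Ncl, a nucleolar protein also named after its values were seen, was at 208 ± 13.5 CPM in the plasma-negative and 153 ± 18.9 CPM in the plasma-positive group (SD, n = 4 each), with no overlap and a log2 change of -0.45 (SE 0.13, edgeR adjusted p = 0.122, and 0.0583 to 0.558 in the alternatives other than DESeq2). DESeq2 called the same 4 hosts higher and Ncl lower (adjusted p = 0.0045).

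These host calls were close to the threshold, and over the 23 alternatives Rpl13a was called in 14, Rps3 in 12, Hspa8 in 9 and Eef2 in 7. With library totals as the only scaling, or with the replicate block, 1 of the 13 was called, and with the exon length correction none was; after that correction Rpl13a was at 0.31, Rps3 at 0.37, Eef2 at 0.20 and Hspa8 at 0.60. Leaving out 1 library at a time, Rpl13a lost its call without plasma-negative replicate 2 (0.50) or plasma-positive replicate 1 (0.53), 2 (0.51) or 4 (0.48). Rps3 kept it without plasma-negative replicate 4 (0.48) or plasma-positive replicate 3 (0.51) only, Hspa8 without plasma-negative replicate 4 (0.81) only, and Eef2 lost it in each of the 8 fits (0.34 to 0.42). Exons of Rpl13a share 29.4% of their length with Gm45713, and reads of ribosomal protein genes may also fall on near-identical copies. No gene named as a snoRNA itself is among the listed genes, so the snoRNAs were not measured here.

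The proteins that work with these RNAs were taken next. Of 12 nuclear speckle proteins, the bodies where Malat1 is found, all were tested, 3 were called lower and none higher (0.565% of all tested genes were called lower), with a median log2 change of -0.30. Limma-voom also called 3 and DESeq2 5, with Pnn and Thrap3 (named after their calls were seen) besides the 3, whereas the replicate block and both fits of RPKM called 1, Rbm25. The median was -0.14 with RPKM plus 1 and -0.15 with RPKM plus 0.1. Rbm25, a splicing regulator, was at 181, 182, 258 and 189 CPM in plasma-negative and 85.4, 100, 88.4 and 88.9 CPM in plasma-positive replicates 1 to 4, without overlap (log2 change -1.16, SE 0.15, edgeR adjusted p = 0.00484). Son and Srrm2, large proteins that build the core of speckles, went from 489 ± 60.8 to 303 ± 36.3 CPM (log2 change -0.69, SE 0.12, adjusted p = 0.0171) and from 517 ± 88.1 to 322 ± 29.9 CPM (log2 change -0.69, SE 0.13, adjusted p = 0.0246; SD, n = 4 each). With the exon length correction the 3 were at -0.70 (Rbm25), -0.30 (Son) and -0.36 (Srrm2) and none was called; their exon lengths are 17376, 14907 and 12842 bases. Over the 23 alternatives Rbm25 was called in 19, Son in 11 and Srrm2 in 10. Rbm25 kept its call without any single library and lost it without both plasma-positive replicates 1 and 2 (-1.19). Son lost it without plasma-negative replicate 1 (-0.70) or 3 (-0.60) or plasma-positive replicate 1 (-0.61), 2 (-0.71) or 3 (-0.70), and Srrm2 kept it without plasma-negative replicate 1 (-0.74) or 4 (-0.76) only.

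Of 12 paraspeckle proteins, partners of Neat1, all were tested and 0 were called by edgeR, with a median log2 change of 0.04 (from -0.13 without plasma-positive replicate 2 to 0.09 without plasma-negative replicate 1 when 1 library was left out); 1 had an unadjusted p under 0.05, and DESeq2 and limma-voom also called 0. The median was -0.072 with library totals only, -0.10 without both plasma-positive replicates 1 and 2 and 0.20 with RPKM plus 0.1. The core proteins Sfpq (-0.24, SE 0.19, adjusted p = 0.654) and Nono (0.35, SE 0.19, adjusted p = 0.462) were not called, and their groups overlapped.

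Of 15 proteins that build or act in snoRNA particles, all were tested and 0 were called by edgeR, with a median log2 change of 0.16; 0 had an unadjusted p under 0.05, and DESeq2 and limma-voom also called 0. That median was 0.013 with the exon length correction, -0.0011 with that correction and the replicate block, 0.042 with library totals only, 0.083 without plasma-negative replicate 3 and 0.27 with RPKM plus 0.1. The methyltransferase Fbl had a log2 change of 0.38 (SE 0.53, adjusted p = 0.8293) and the pseudouridine synthase Dkc1 one of 0.13 (SE 0.35, adjusted p = 0.921). Of 15 factors of nonsense-mediated decay, which removes the exons of host RNAs, all were tested, 1 was called lower and none higher (0.565% of all tested genes were called lower), with a median log2 change of -0.31. DESeq2 called 2 of them lower, Smg1 and, named after its call was seen, Smg6, and limma-voom called 1, while the replicate block and both fits of RPKM called 0. The median ran from -0.46 without plasma-negative replicate 3 to -0.11 without plasma-negative replicate 1 or 4, and was -0.13 with RPKM plus 1 or plus 0.1. The called gene was the kinase Smg1, of 23984 exon bases, at 96.3, 61.3, 63.9 and 68.6 CPM in plasma-negative and 31.8, 25.6, 28.5 and 39.1 CPM in plasma-positive replicates 1 to 4 (log2 change -1.22, SE 0.23, edgeR adjusted p = 0.0248). It was called in 11 of 23 alternatives and lost its call without plasma-negative replicate 1 (-1.05) or 3 (-1.27), without plasma-positive replicate 1 (-1.23), 2 (-1.13) or 3 (-1.17), and with the exon length correction (-0.64). Its substrate, the helicase Upf1, was at 0.04 (SE 0.31, adjusted p = 0.976).

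**Figure D5:**
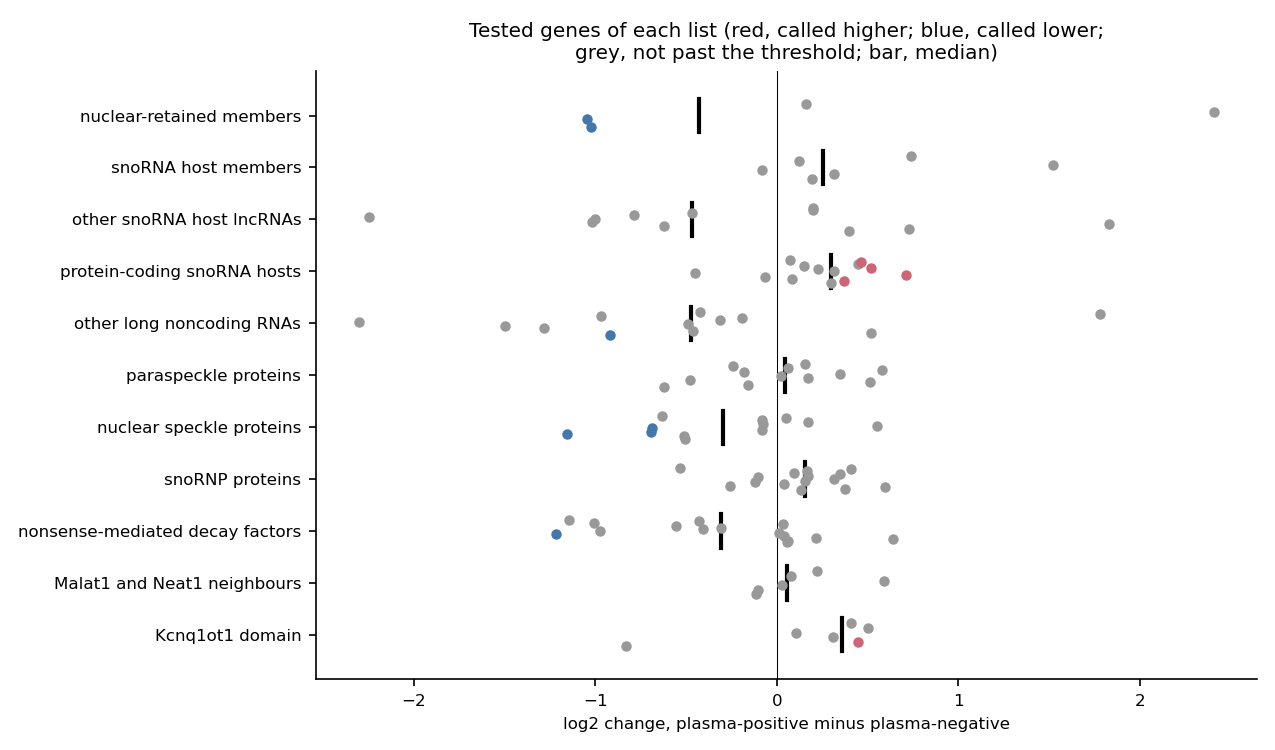
Log2 change (plasma-positive minus plasma-negative, horizontal axis) of the tested genes reported in the 2 groups of members and in 9 lists of related genes, with genes called higher in red, called lower in blue, others in grey, and the list median as a black bar. Called genes are at or below -0.69 among nuclear-retained RNAs, other long noncoding RNAs and speckle and decay proteins, and at or above 0.37 among protein-coding snoRNA hosts and the Kcnq1ot1 domain.

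Genes next to the members on the chromosome were also examined. Of 7 neighbours of Malat1 and Neat1, 6 were tested and 0 were called by edgeR, with a median log2 change of 0.05; 1 had an unadjusted p under 0.05, and DESeq2 and limma-voom also called 0. That median had no steady sign: it was -0.059 with library totals only, -0.035 with the replicate block, -0.038 after thinning, -0.0052 with limma-voom, -0.011 with the exon length correction and -0.084 with that correction and the block, and ran from 0.0052 (without plasma-positive replicate 2) to 0.14 (without plasma-positive replicate 4) when 1 library was left out. Frmd8, which lies beside Neat1, was at 97.8, 71.9, 96.1 and 69.0 CPM in plasma-negative and 128, 146, 142 and 88.8 CPM in plasma-positive replicates 1 to 4 (log2 change 0.59, SE 0.20, adjusted p = 0.187 by edgeR). The low value of Malat1 in plasma-positive libraries was therefore not accompanied by a called change of a listed neighbour. In the Kcnq1ot1 domain 6 of 9 genes were tested and 1 was called higher (0.844% of all tested genes were called higher), with a median log2 change of 0.36. That median was 0.18 without plasma-positive replicate 3, 0.24 without plasma-negative replicate 2 and 0.14 with the exon length correction. Kcnq1 itself, within whose span Kcnq1ot1 lies, had 0 counts in all 8 libraries, and Cdkn1c, a cell cycle inhibitor that Kcnq1ot1 silences on 1 chromosome, was not called (log2 change 0.31, SE 0.37, adjusted p = 0.788). The called gene was Cd81, a tetraspanin abundant in microglia, which went from 5479 ± 286 to 7481 ± 429 CPM (SD, n = 4 each; log2 change 0.45, SE 0.05, edgeR adjusted p = 0.00265) and was past the threshold in 21 of 23 alternatives, among them each fit without 1 library and the exon length correction (0.27, adjusted p = 0.0428). It was not called with the exon length correction and replicate block together (0.27, adjusted p = 0.0985) or without both plasma-positive replicates 1 and 2 (0.43, adjusted p = 0.0569).

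The genes most like Malat1 from library to library, once the mean of each group was removed, were Cklf (Pearson r = 0.950), Fam168a (0.945) and Jade2 (0.933), over 8 libraries and the 3150 tested genes at a mean of at least 32 CPM whose exons overlap no other gene (3149 for Gas5, which is one of them). For Neat1 they were Hdac5 (0.947), Glrx5 (0.938) and Luc7l3 (0.936), and for Gas5 Ubxn4 (0.963), Cln8 (0.957) and Slc30a6 (0.949). Each value is among the highest of all those genes over 8 points that share depth and scaling, so it is a description only. The 3 members had no gene in common among these.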

How the data were processed

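Per the labels' protocols, RNA was harvested with a micro-scale column kit and libraries were made with Smart-seq2, a full-length method without molecular identifiers. Per the submitters' processing notes, bcl2fastq, Trim Galore, STAR and HTSeq were used with mouse build mm10; versions, roles and the treatment of shared reads and strand are not given in the sources used here. The authors deposited whole-number read counts per gene and RPKM values, 1 column per library, made from top-hit alignments per the file headers. Of 35583 gene IDs, 35546 were in GENCODE M21 (GRCm38), which gave exons and gene types; exon lengths came from the ratio of deposited counts to deposited RPKM.

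Counts were tested in R 4.3.3 with edgeR 4.0.16 (TMM scaling, its default low-count filter, quasi-likelihood test, Benjamini-Hochberg adjustment over 13277 genes, threshold 0.05) on 4 against 4 libraries, after a check on simulated data. CPM values carry TMM factors. Alternatives used DESeq2 1.42.0, limma 3.58.1, RPKM plus 1 or 0.1, other scalings and filters, a replicate block, a loess correction for exon length (span 0.3), thinning to the smallest total, and leaving out libraries. The labels do not say whether same-numbered libraries of the 2 groups share animals. Such libraries correlated by 0.0109 to 0.0315 in their deviations from group means. The mean was 0.0167, against -0.0056 for different numbers. These values cannot settle whether animals were shared, and the main fit did not take the numbers as pairs. The members, lists and tests were chosen with earlier results of these data known. Named genes are the members, up to 3 called genes per list and direction with the smallest p, 12 fixed genes, and the 3 genes most like each of Malat1, Neat1 and Gas5; Gm37376, Hspa8, Ncl, Smg6, Pnn and Thrap3 were added after their values or calls were seen. A few genes of the lists are not reported here, and the list counts and medians leave them out.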

Additional observations from a re-analysis of the deposited data

Results flagged for a closer look

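Of 64 groups of 4 libraries examined, 3 held a library far from the others by Dixon's criterion, which chance does in about 5% of groups. Snhg6 was at 1.88 CPM in plasma-positive replicate 3, where the nearest library was at 14.0 CPM. Rps3 was at 542 CPM in plasma-negative replicate 3, below the nearest library at 624 CPM. Rbm25 was at 258 CPM in plasma-negative replicate 3, above the nearest library at 189 CPM. Without those libraries the log2 changes were 0.48 for Snhg6, 0.42 for Rps3, which was then not called, and -1.02 for Rbm25, which was.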

How the results depend on the processing

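The number of genes called was 187 (112 higher, 75 lower). It was 965 with DESeq2, 447 (388 higher, 59 lower) and 432 (370 higher, 62 lower) with limma on RPKM plus 1 and plus 0.1, 227 (64 higher, 163 lower) with library totals only, 70 with the exon length correction, also when fitted without the members, 2 (Malat1 and Gm37376) without plasma-positive replicates 1 and 2, and 66 (without plasma-negative replicate 3) to 203 (without plasma-negative replicate 4) when 1 library was left out. The median of all genes moved to -0.11 with library totals, 0.11 with RPKM plus 1 and 0.16 with RPKM plus 0.1. Libraries did not all correlate best with their own number. With the replicate block the count was 74, and 10 with the block and the length correction; under the block Kcnq1ot1, Rpl13a, Son, Srrm2, Smg1, Eef2 and Hspa8 were not called. The cause of these shifts was not tested. The last 2 alternatives, the length correction fitted without the members and the loss of plasma-positive replicates 1 and 2, were chosen after seeing the data.

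Malat1 and Gm37376 were past the threshold in all 23 alternatives. The log2 change of Kcnq1ot1 was -0.75 and -0.30 with RPKM plus 0.1 and plus 1. Signs turned as follows, among genes that were not called. Without plasma-positive replicates 1 and 2 the log2 changes were -0.25 (Neat1), -1.45 (Meg3), -0.10 (Snhg1), -0.37 (Snhg6), -3.95 (Rian), -0.49 (Zfas1) and -0.21 (Upf1). With limma-voom they were -0.00034 (Meg3), -0.10 (Snhg6) and -0.035 (Upf1). Snhg6 was at -0.10 with the replicate block, -0.18 with either length correction and -0.42 with both length correction and block. Zfas1 was at -0.033, -0.033 and -0.11 and Upf1 at -0.050, -0.050 and -0.066 in the same length fits, Dkc1 at -0.0011 with length correction and block, and Upf1 at -0.084 with library totals. With RPKM plus 1 and plus 0.1 Snhg12 was at 0.051 and 0.10, and with plus 0.1 Snhg3 was at 0.086. Leaving out 1 library gave ranges of -0.44 to 0.60 (Neat1), -0.023 to 1.37 (Snhg1), -0.057 to 0.48 (Snhg6), -0.28 to 0.22 (Snhg12), -0.17 to 0.47 (Zfas1), -0.11 to 0.37 (Dkc1), -0.10 to 0.61 (Fbl) and -0.11 to 0.23 (Upf1). Depth was least in plasma-negative replicate 4, and counting errors of the 5 lower host RNAs reached 19.5% over the plasma-negative group.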
